A study of Mus musculus with 6 samples.

Results

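Interferon-stimulated effector genes are the genes that a cell switches on after interferon binds its receptor and that carry out the antiviral response. A list of 34 such genes, named for their known induction by interferon, was followed in germinal centre B cells with and without a Uchl1 transgene. The list was chosen with earlier results of these data known, so counts over it are descriptions and not tests. Of the 34 genes 31 had a probe set annotated to that gene alone, out of 18193 genes measured in all. Isg15, Oas1g and Ifi44 had none and were not analysed here; the probe set that lists Isg15 lists another gene with it. Where a gene had several probe sets, the probe set with the highest mean over the 6 arrays was used.

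Affymetrix mouse 430 2.0 arrays were hybridised with total RNA, 1 array per sample. The ImHABCL6/Uchl1 group (3 arrays) came from mice that carry a Uchl1 transgene, a deubiquitinating enzyme best known from neurons, on the ImHABCL6 background. The ImHABCL6 group (3 arrays) came from mice without it. ImHABCL6 is known as an allele that expresses HA-tagged BCL6, the transcriptional repressor that defines germinal centre B cells, from an immunoglobulin heavy-chain promoter. All the mice of both groups therefore carried this allele, and all were immunised with sheep red blood cells before B cells were prepared from the spleen with magnetic beads. No array of mice without the BCL6 allele was used here. The series title calls Uchl1 transgenic and the design text calls the mice mutant. The promoter of the Uchl1 transgene, its founder lines, and the age and sex of the mice are not stated in the labels.

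Interferons bind receptors that activate the kinases JAK1 and TYK2, and these phosphorylate STAT proteins. Together with IRF9 the STAT proteins form ISGF3, which binds the interferon-stimulated response element (ISRE) in the promoters of its targets. The products of these targets bind or degrade viral RNA, block viral entry and release, alter nucleotide pools or conjugate the ubiquitin-like protein ISG15 to other proteins. B cells respond to type I interferon in this way, and some of the genes are also used by other cells of the spleen.

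ISGF3 acts through the ISRE, so the promoters of the listed genes were searched for it, and the stretches around the matches are shown because several members share them. RefSeq promoters (build GRCm38.p6, 250 bases before to 50 bases after the gene start) were given for 24 of the 34 genes. They were searched on both strands for the ISRE core, which is GAAA, any 2 bases and GAAA again, and 10 of the 24 genes (41.7%) held it. Of all 27025 genes with a promoter 3.99% held it. The windows below run 5′ to 3′ on the strand of the gene, with up to 10 bases on either side of the matches, cut at the gene start. Capitals mark the core, either as written or as its reverse complement, and overlapping matches run together.
Ifit1: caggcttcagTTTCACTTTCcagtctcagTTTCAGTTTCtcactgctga
Ifit3: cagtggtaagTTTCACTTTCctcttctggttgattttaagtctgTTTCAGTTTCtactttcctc
Oas1a: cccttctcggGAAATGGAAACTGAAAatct
Oas3: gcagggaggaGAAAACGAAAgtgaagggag
Bst2: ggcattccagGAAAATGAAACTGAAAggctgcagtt
Ddx60: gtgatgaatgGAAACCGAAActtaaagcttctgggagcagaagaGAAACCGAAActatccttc
Rsad2: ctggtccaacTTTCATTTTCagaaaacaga

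The windows lie at chr19:34640775-34640823 (+ strand) for Ifit1, chr19:34583363-34583426 (+ strand) for Ifit3, chr5:120907526-120907555 (- strand) for Oas1a and chr5:120777715-120777744 (- strand) for Oas3. They lie at chr8:71537577-71537612 (- strand) for Bst2, chr8:61928024-61928086 (+ strand) for Ddx60 and chr12:26456553-26456582 (- strand) for Rsad2. Counted from the gene start, the matches ran from position -104 to -76 in Ifit1 and from -20 to -5 in Oas1a. Ifitm3 was the other measured gene with the core, which began 3 bases after its gene start. The unmeasured Isg15 and Oas1g also held it. More than 1 match was found in 8 of the 10 genes. The core of the gamma-activated site, TTCNNNGAA, was found in 6 of the 24 genes (25.0%) and in 9.55% of all genes with a promoter, and it overlapped an ISRE core in Bst2 and Ifitm3. The 8 measured genes with an ISRE core had a median log2 difference of -0.54 between the genotypes, and the 13 measured genes without one in this window had -0.53. A match is a description and not a binding site, and no match says only that these letters are not in this window.

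The labels and the make-up of the preparations were checked on the same arrays. The Uchl1 probe set read 5.96, 5.87 and 6.02 in ImHABCL6/Uchl1 cells and 5.01, 5.0 and 5.02 in ImHABCL6 cells on the log2 scale, the direction that the labels give. The difference of 0.94 (SE 0.12) did not pass over all genes, and the probe set was dim, with a mean level at or below the median of all genes. Bcl6 differed by 0.24 (SE 0.15). The measured germinal centre markers, 7 of 8 listed and among them S1pr2 and Rgs13, had mean log2 levels of 10.23 to 10.96 in ImHABCL6/Uchl1 arrays and 10.52 to 10.73 in ImHABCL6 arrays. Of the 6 measured follicular B cell markers 5 were higher in ImHABCL6/Uchl1 cells, by a median of 0.33 over the 6. This was not particular to follicular markers: of the 6 measured pan B cell markers 5 were also higher, by a median of 0.17. The 11 measured erythroid markers, of 14 listed, had mean levels of 9.76, 11.66 and 11.11 in ImHABCL6/Uchl1 arrays and 11.28, 11.82 and 12.26 in ImHABCL6 arrays. Each of the 11 had a lower mean in the transgenic group (median difference -1.02), and 0 of them passed over all genes. These markers were thus read in every preparation, and ImHABCL6/Uchl1 replicate 1 had the least. In such bulk RNA, fewer cells of a type and less RNA per cell cannot be told apart.

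All 31 measured interferon-stimulated genes had a lower mean in ImHABCL6/Uchl1 cells than in ImHABCL6 cells, and none of the differences passed the test over all genes. The median log2 difference was -0.46, or 1.38-fold, and single genes ran from -1.96 (Parp12) to -0.01 (Dtx3l and Sp100). The median over all 18193 genes was 0.003, and 49.4% of them were lower. The erythroid markers were also lower, by the median of -1.02 given above. The count of lower members was 31 of 31 when the arrays were centred on their medians and 29 after quantile normalization (Dtx3l and Sp100 higher), where 47.6% of all genes were lower. It was 25 with the erythroid mean as a covariate, against 53.0% of all genes. It was 24, with a median of -0.26, when limma's array weights were used, against 51.4% of all genes.

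With limma, 0 of the 31 members and 0.0% of all genes had a Benjamini-Hochberg adjusted p under 0.05. An unadjusted p under 0.05 was reached by 10 members, or 32.3%, against 4.94% of all genes in either direction and 3.85% in the lower direction. That count was 6 without ImHABCL6 replicate 1, 2 or 3, against 5.01%, 2.71% and 2.13% of all genes. In 6 members (19.4%) the 3 ImHABCL6/Uchl1 arrays lay below all 3 ImHABCL6 arrays, as in 5.49% of all genes, and without ImHABCL6/Uchl1 replicate 3 there were 15 such members (48.4%), against 8.37% of all genes in that comparison of 2 arrays with 3. With all arrays the count was 4 after quantile normalization, against 5.07% of all genes, and 9 after median centring, against 7.07%. The reverse order was found in 0 members and 3.95% of genes. At least 2-fold lower were 6 members, Parp12, Ifit1, Rtp4, Xaf1, Usp18 and Cmpk2, against 0.89% of all genes. At least 2-fold higher were 0 members and 0.0385% of all genes. With array weights 3 members were at least 2-fold lower, against 0.94% of all genes, and with the erythroid covariate 3, against 0.363%. The count of 6 became 3 when ImHABCL6/Uchl1 replicate 1 was left out, against 0.319% of all genes, and 10 when its replicate 3 was, against 1.26%. A permutation of 3 arrays against 3 cannot give an exact p below 0.1, so for single genes the separation of the arrays is given in its place.

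**Figure D1:**
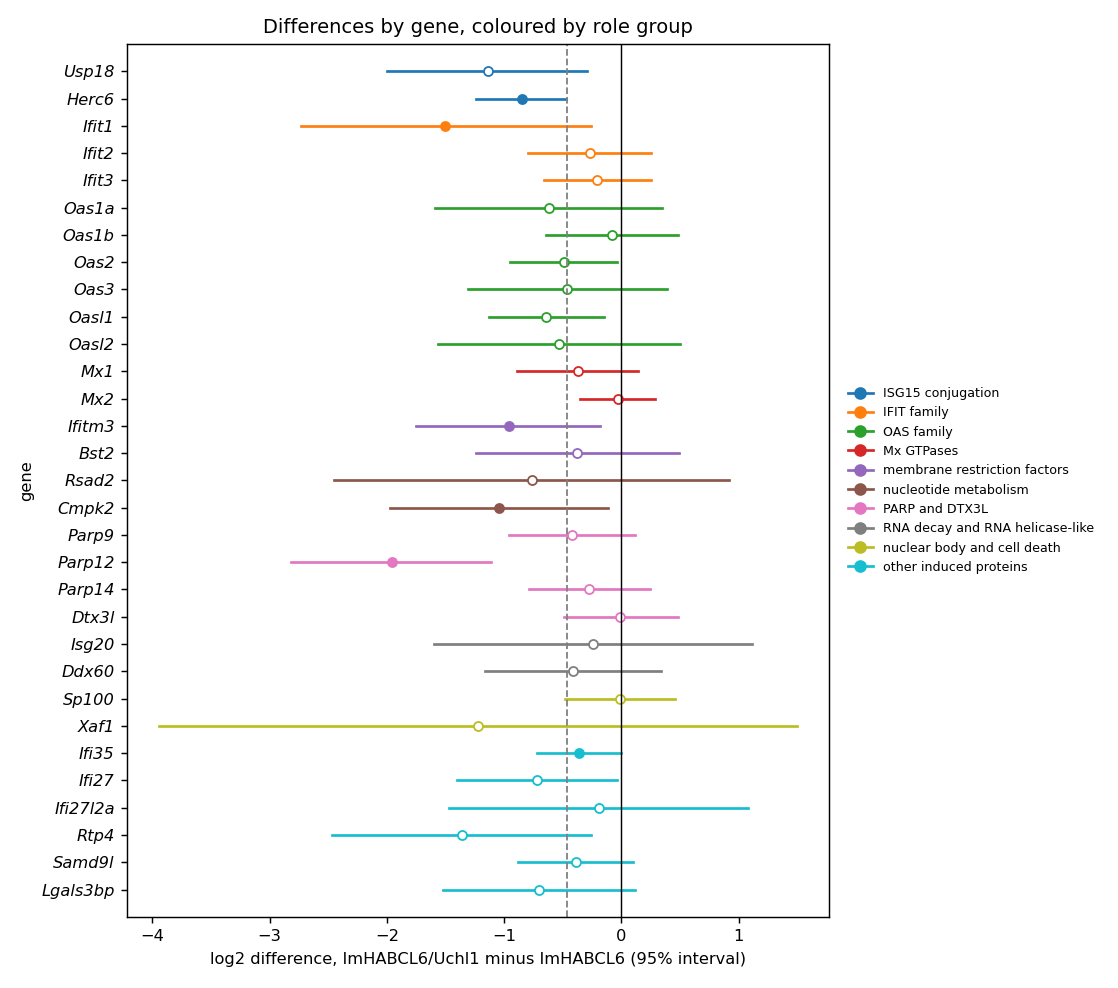
Log2 difference of each of the 31 measured genes, ImHABCL6/Uchl1 minus ImHABCL6 (horizontal axis), with limma's 95% interval, 3 arrays per group, coloured by role group. Filled points mark the 6 genes whose ImHABCL6/Uchl1 arrays all lie below the ImHABCL6 arrays, the dashed line is the median of -0.46, and every point lies left of 0.

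In these genes the arrays of the transgenic group lay further apart than the ImHABCL6 arrays did. Differences between mice, preparations and arrays cannot be told apart here. The score of the 31 genes per array, which is the mean of their log2 levels after each gene's mean over the 6 arrays was subtracted, was -0.71, -0.29 and 0.10 in ImHABCL6/Uchl1 replicates 1, 2 and 3. It was 0.45, 0.18 and 0.27 in ImHABCL6 replicates 1, 2 and 3. Every ImHABCL6 array thus scored higher than every ImHABCL6/Uchl1 array, although ImHABCL6/Uchl1 replicate 3 came within 0.1 of the lowest of them. The score averaged -0.30 ± 0.40 in ImHABCL6/Uchl1 arrays and 0.30 ± 0.14 in ImHABCL6 arrays (SD, n = 3 each). The SD was larger in the ImHABCL6/Uchl1 group for 27 of 31 members, against 69.4% of all genes.

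ImHABCL6/Uchl1 replicate 1 lay below all 3 ImHABCL6 arrays in 23 members (74.2%, against 24.8% of all genes), and replicate 2 in 22 members (71.0%, against 35.6%). Replicate 3 did so in 10 members (32.3%, against 27.7%). Above all 3 ImHABCL6 arrays, replicate 1 lay in 1 member (against 30.0% of all genes), replicate 2 in 3 members (against 31.9%) and replicate 3 in 2 members (against 23.9%). The lowest of the 6 values fell on ImHABCL6/Uchl1 replicate 2 in 14 members (28.0% of all genes), on its replicate 1 in 13 (17.6%) and on its replicate 3 in 3 (15.0%). It fell on ImHABCL6 replicate 3 in Mx2 alone (16.2% of all genes). ImHABCL6/Uchl1 replicates 1 and 2 therefore held most of the lowest values.

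**Figure D2:**
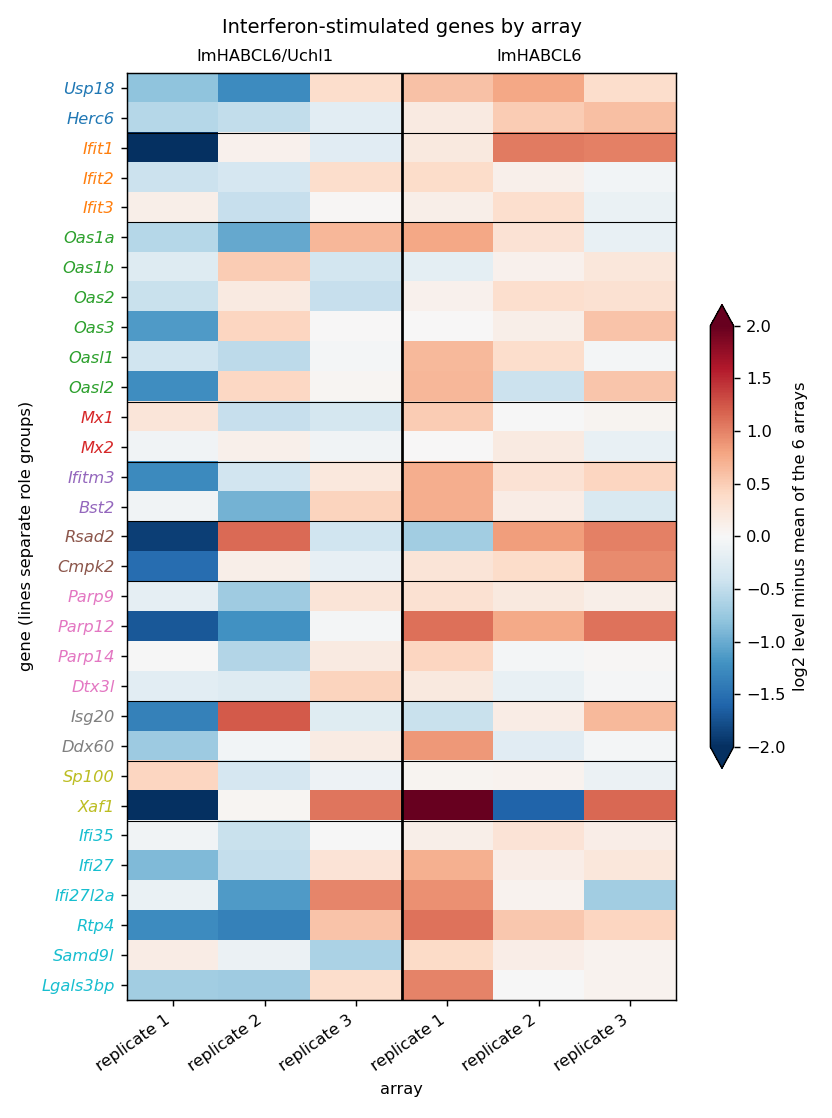
Log2 level of each measured gene (rows, names coloured and lines drawn by role group) minus its mean over the 6 arrays, for the 3 ImHABCL6/Uchl1 arrays left of the thick line and the 3 ImHABCL6 arrays right of it. Blue is below and red above the mean, and colours end at 2 units. Ifit1, Rsad2, Isg20 and Xaf1 are deep blue in ImHABCL6/Uchl1 replicate 1 and not in replicate 2, while Parp12 and Rtp4 are blue in both.

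Genes of ISG15 conjugation were lower in ImHABCL6/Uchl1 cells, both measured members of 3 listed. Herc6, the main ligase that attaches ISG15 to proteins in the mouse, read 7.20, 7.28 and 7.56 in ImHABCL6/Uchl1 cells and 7.95, 8.28 and 8.38 in ImHABCL6 cells. The groups did not overlap, and within each of them the values lay close together. Its log2 difference was -0.85 (SE 0.17, limma adjusted p = 0.648), and its 4 probe sets ran from -0.85 to -0.54. Usp18, the protease that removes ISG15 and also dampens signalling from the interferon receptor, read 7.50, 7.05 and 8.67 in ImHABCL6/Uchl1 cells and 8.89, 9.09 and 8.67 in ImHABCL6 cells. ImHABCL6/Uchl1 replicate 3 equalled the lowest ImHABCL6 array at this rounding, and the groups did not separate. The difference was -1.14 (SE 0.37, limma adjusted p = 0.983), -0.80 when ImHABCL6/Uchl1 replicate 2 was left out and -0.52 under array weighting. The weighting gave replicate 3 of the transgenic group the highest weight, 3.302, and its replicate 2 the lowest, 0.297.

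The IFIT proteins, which bind foreign RNA and block its translation, were lower unevenly. Ifit1, which recognises RNA with an incompletely methylated cap, read 4.83, 7.02 and 6.71 in ImHABCL6/Uchl1 cells and 7.13, 7.98 and 7.94 in ImHABCL6 cells. All 3 transgenic arrays lay below the ImHABCL6 arrays, with replicate 1 far below the rest and replicate 2 just under the lowest ImHABCL6 array. The difference was -1.5 (SE 0.54, limma adjusted p = 0.983), -0.82 without that replicate 1 and -0.43 with the erythroid covariate. Its relative Ifit2 read 6.66, 6.75 and 7.44 in ImHABCL6/Uchl1 cells and 7.46, 7.19 and 7.03 in ImHABCL6 cells. These values overlapped (-0.27, SE 0.23, 95% interval -0.80 to 0.25), and Ifit2 was higher by 0.09 with array weights. Ifit3, another gene of the family, differed by -0.21 (95% interval -0.66 to 0.25).

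The oligoadenylate synthetases, which sense double-stranded RNA and activate RNase L, had 6 of 7 listed members measured. All 6 were lower, with a median of -0.51, and no member separated the groups. Oas1b, Oas3 and Oasl2 were higher with the erythroid covariate and Oas1a with array weights. Oasl1, which in the mouse restrains translation of Irf7, read 7.25, 7.13 and 7.62 in ImHABCL6/Uchl1 cells and 8.30, 8.0 and 7.61 in ImHABCL6 cells. Only the highest transgenic array, at 7.62, reached the lowest ImHABCL6 array, and the difference was -0.64 (SE 0.21, limma adjusted p = 0.983). Oas2 read 6.5, 7.13 and 6.49 in ImHABCL6/Uchl1 cells and 7.04, 7.29 and 7.26 in ImHABCL6 cells, a difference of -0.49 (SE 0.20, limma adjusted p = 0.992). Here it was replicate 2 that lay among the ImHABCL6 values.

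Oas1a differed by -0.62 (SE 0.42), Oasl2 by -0.53 (SE 0.45), Oas3 by -0.46 (SE 0.37) and Oas1b, the gene of flavivirus resistance in mice, by -0.08 (SE 0.24). The Oas genes are close relatives, so a probe set can read more than 1 of them and their values are uncertain in that respect.

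Genes that act at membranes and on virus particles differed from each other in size. Ifitm3, which blocks fusion of viruses in endosomes, read 7.88, 8.77 and 9.37 in ImHABCL6/Uchl1 cells and 9.88, 9.44 and 9.59 in ImHABCL6 cells. The groups did not overlap, although the highest transgenic value lay within 0.1 of the lowest ImHABCL6 value, and the difference was -0.96 (SE 0.34, limma adjusted p = 0.983). Leaving out ImHABCL6/Uchl1 replicate 1 gave -0.56, and array weighting gave -0.44. Bst2 (tetherin), which holds budding virus at the cell surface and is also used as a marker of plasmacytoid dendritic cells, read 7.53, 6.65 and 8.04 in ImHABCL6/Uchl1 cells and 8.33, 7.74 and 7.29 in ImHABCL6 cells. These overlapped, with a difference of -0.38 (SE 0.38) that was 0.13 with array weights. The 7 plasmacytoid dendritic cell markers had mean levels of 7.48, 7.30 and 7.58 in ImHABCL6/Uchl1 arrays and 7.58, 7.40 and 7.24 in ImHABCL6 arrays, and 2 of the 7 were lower. The markers did not share an order within the transgenic group. Siglech, a defining marker, read 5.14, 5.43 and 5.35, highest in replicate 2, where Bst2 was lowest. Ccr9, Cox6a2 and Klk1 were also highest there. Siglech (mean 5.3 in both groups) and Ccr9 (4.42 in ImHABCL6/Uchl1 and 4.49 in ImHABCL6 cells) were dim, so their order is uncertain. Pacsin1, Tcf4 and Ly6d were lowest in replicate 2, as Bst2 was, and so was the mean of the 7 markers. The part of such cells in the Bst2 values was not tested.

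The Mx GTPases, which trap viral nucleoproteins and are defective in many laboratory strains, showed the smallest difference of a role group. Mx1 read 4.51, 3.81 and 3.92 in ImHABCL6/Uchl1 cells and 4.78, 4.26 and 4.32 in ImHABCL6 cells, and Mx2 read 5.09, 5.26 and 5.10 in ImHABCL6/Uchl1 cells and 5.17, 5.35 and 5.01 in ImHABCL6 cells. Both pairs of groups overlapped, with differences of -0.37 (SE 0.22) for Mx1 and -0.03 (95% interval -0.35 to 0.29) for Mx2. Both were among the dim genes, as were Ifit3 and Ddx60: their mean level lay at or below the median of all genes.

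Rsad2 and Cmpk2 are neighbours in the genome and act on nucleotides. Rsad2 (viperin) makes a chain-terminating analogue of CTP, and Cmpk2 is a mitochondrial nucleotide kinase. Rsad2 had a wide spread, at 11.16, 14.17 and 12.63 in ImHABCL6/Uchl1 cells and 12.34, 13.87 and 14.04 in ImHABCL6 cells. The lowest and the highest of the 6 values both fell in the transgenic group, and the groups overlapped throughout. The difference was -0.76 (SE 0.73, limma adjusted p = 0.998). Leaving out ImHABCL6/Uchl1 replicate 1 gave -0.02 and leaving out its replicate 2 gave -1.52. All 3 Rsad2 probe sets gave differences from -0.80 to -0.76. Cmpk2 read 7.53, 9.16 and 8.88 in ImHABCL6/Uchl1 cells and 9.30, 9.42 and 9.99 in ImHABCL6 cells. Its groups did not overlap, and the difference was -1.04 (SE 0.40, limma adjusted p = 0.983), but it was -0.28 on its other probe set, -0.66 over both and -0.55 without ImHABCL6/Uchl1 replicate 1.

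Isg20, an exonuclease that degrades RNA, resembled Rsad2. It read 10.12, 12.71 and 11.24 in ImHABCL6/Uchl1 cells and 11.04, 11.63 and 12.13 in ImHABCL6 cells. The transgenic group again held both extremes (-0.24, SE 0.59), and without its replicate 1 Isg20 was higher by 0.38. Ddx60, a helicase that supports RNA sensing, read 3.02, 3.68 and 3.91 in ImHABCL6/Uchl1 cells and 4.61, 3.52 and 3.70 in ImHABCL6 cells, overlapping values with a difference of -0.41 (SE 0.32).

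The 6 arrays stood in the same order for Rsad2 and Isg20 as for Alas2, the first enzyme of haem synthesis in red-cell precursors, a match noticed after the values were seen. Alas2 read 10.29, 13.60 and 11.38 in ImHABCL6/Uchl1 cells and 10.50, 12.14 and 12.70 in ImHABCL6 cells. It was not typical of the 11 measured erythroid markers. Its difference was -0.03 (SE 0.84), against their median of -1.02. The other erythroid markers were all highest in ImHABCL6 replicate 3, and none of them had the full order of Alas2. The full order was shared by 2 of 31 members and 0.638% of all genes. Among the pathway and marker genes Zbtb46, a dendritic cell marker, also had it. So did Ube2l6, the enzyme that carries ISG15 to its ligase, at 7.59, 9.99 and 8.25 in ImHABCL6/Uchl1 cells and 7.80, 8.89 and 9.68 in ImHABCL6 cells.

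More widely, 7 members were at least 2-fold higher in ImHABCL6/Uchl1 replicate 2 than in its replicate 1 (Rsad2, Xaf1, Isg20, Ifit1, Oasl2, Cmpk2 and Oas3), against 2.29% of all genes. The reverse held for 0 members and 2.55% of genes. In the same pair of arrays the mean of the erythroid markers was 11.66 in replicate 2 and 9.76 in replicate 1.

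With the mean of the erythroid markers as a covariate, some members kept their difference and others did not. The median of the 31 was -0.47, and 6 members were higher: Isg20 by 0.92 (SE 0.25), Rsad2 by 0.70 (SE 0.30), Oas3 by 0.27 (SE 0.16), Oas1b by 0.23 (SE 0.24), Oasl2 by 0.11 (SE 0.41) and Dtx3l by less than 0.01. Cmpk2 was at -0.25 (SE 0.17), Xaf1 at -0.12 (SE 1.33) and Ifit1 at -0.43 (SE 0.22), against -1.04, -1.22 and -1.5 without the covariate. Parp12 was at -1.64 (SE 0.42), Rtp4 at -1.34 (SE 0.60), Usp18 at -1.20 (SE 0.46), Oasl1 at -0.77 (SE 0.25) and Herc6 at -0.70 (SE 0.18). Mx1 was at -0.75 (SE 0.16) and Bst2 at -0.81 (SE 0.39), both further from 0 than without the term. The smallest limma adjusted p of a member was 0.315, and 0 of 18193 genes passed. An unadjusted p under 0.05 was reached by 10 of the 31 members, against 14.9% of all genes in that fit. Of the 10 members 8 were lower (25.8% of the members, against 10.3% of all genes), and Isg20 and Rsad2 were higher.

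**Figure D3:**
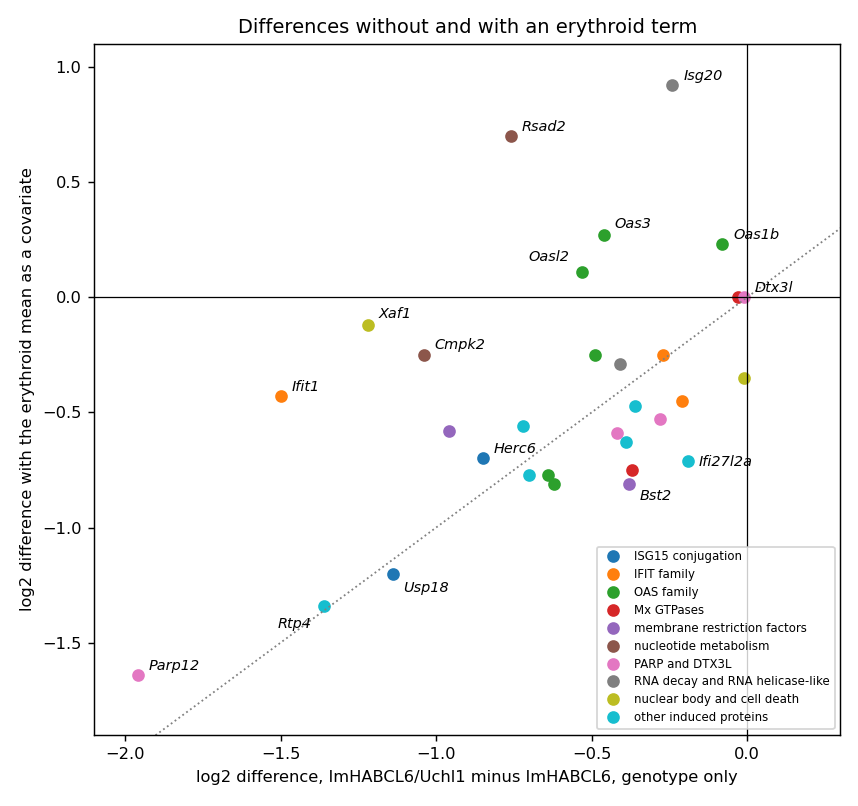
Log2 difference of each measured gene, ImHABCL6/Uchl1 minus ImHABCL6, in the fit with genotype alone (horizontal) and with the mean of 11 erythroid markers as a covariate (vertical), coloured by role group. Points on the dotted line are equal in both fits: Rtp4 and Usp18 lie near it, while Isg20 (0.92) and Rsad2 (0.70) lie above 0 on the vertical axis.

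The ADP-ribosyltransferases and their ligase partner held the largest difference and one of the smallest. Parp12, which attaches single ADP-ribose units to proteins, read 5.29, 5.78 and 6.94 in ImHABCL6/Uchl1 cells and 8.08, 7.75 and 8.07 in ImHABCL6 cells. All 3 transgenic arrays were far lower than any ImHABCL6 array. The mean was 6.0 ± 0.84 in ImHABCL6/Uchl1 cells and 7.96 ± 0.19 in ImHABCL6 cells (SD, n = 3 each), a difference of -1.96 (SE 0.37, 95% interval -2.82 to -1.11) or 3.9-fold. The limma adjusted p was 0.638, and leaving out 1 array at a time gave -2.43 to -1.60. With array weights it was -1.27.

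Parp9, which acts in a complex with Dtx3l, read 9.41, 8.87 and 9.85 in ImHABCL6/Uchl1 cells and 9.90, 9.79 and 9.71 in ImHABCL6 cells. Replicate 3 of the transgenic group lay among the ImHABCL6 values, and the difference was -0.42 (SE 0.23), or -0.07 with array weights. Parp14 differed by -0.28 (SE 0.22, 0.01 with array weights). Dtx3l, the ubiquitin ligase of the complex, differed by -0.01 (95% interval -0.49 to 0.48), by 0.08 after quantile normalization and by 0.36 with array weights.

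Xaf1, a binding partner of the apoptosis inhibitor XIAP, varied more between the arrays of a group than between the groups. Its brighter probe set read 4.93, 7.89 and 8.92 in ImHABCL6/Uchl1 cells and 10.14, 6.25 and 9.01 in ImHABCL6 cells. The difference of -1.22 (SE 1.18) had a 95% interval of -3.94 to 1.5, and it was 0.43 with array weights. Its other probe set read 7.44, 7.07 and 7.86 in ImHABCL6/Uchl1 cells and 6.38, 8.84 and 7.17 in ImHABCL6 cells and showed no net difference. Among the ImHABCL6 arrays the first probe set was lowest in replicate 2, where the second was highest, and the level of Xaf1 is uncertain. Sp100, a scaffold of nuclear bodies, read 9.41, 8.63 and 8.87 in ImHABCL6/Uchl1 cells and 9.03, 9.04 and 8.86 in ImHABCL6 cells (-0.01, 95% interval -0.48 to 0.46). Its other probe set differed by 0.10. In 10 of the 11 members with several probe sets all probe sets were lower, and Sp100 was the exception.

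Among the other induced genes, all 6 measured members of 7 listed were lower, and Ifi35 alone separated the groups on the probe set used. Rtp4, a chaperone of membrane receptors that is strongly induced by interferon, read 6.85, 6.75 and 8.67 in ImHABCL6/Uchl1 cells and 9.19, 8.64 and 8.53 in ImHABCL6 cells. Replicates 1 and 2 of the transgenic group were far below every ImHABCL6 array and replicate 3 lay among them. The difference was -1.36 (SE 0.48, limma adjusted p = 0.983), -1.03 when ImHABCL6/Uchl1 replicate 2 was left out, -0.43 under array weighting and -0.78 when its dim second probe set was averaged in. Ifi27 read 9.01, 9.43 and 10.18 in ImHABCL6/Uchl1 cells and 10.61, 10.04 and 10.13 in ImHABCL6 cells, a difference of -0.72 (SE 0.30, limma adjusted p = 0.992), and -0.22 with array weights.

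Ifi35, which binds other induced proteins, differed by -0.36 (SE 0.16), and its 3 probe sets ran from -0.36 to -0.31. Samd9l differed by -0.39 (SE 0.21). Lgals3bp, a secreted glycoprotein, differed by -0.70 (SE 0.36) and Ifi27l2a by -0.19 (SE 0.55). In both of these ImHABCL6/Uchl1 replicate 3 was the highest transgenic array, at 7.17 for Lgals3bp and 11.86 for Ifi27l2a. This was not particular to these genes. The same array was the highest transgenic one for Rtp4, Ifi27, Ifi35 and the score of the 31 members (0.10, against -0.71 and -0.29), and the lowest for Samd9l. Among 9 measured monocyte and neutrophil markers that array also had the highest levels of Lyz2 (10.55, against 8.89 and 8.13 in the other transgenic arrays and 7.30 to 8.75 in ImHABCL6 arrays) and Csf1r (8.11, against 6.46 and 6.57 in the other transgenic arrays and 6.48 to 6.84 in ImHABCL6 arrays), which were singled out after their values were seen. The neutrophil genes S100a8 (4.76) and S100a9 (4.47) were lowest there of all 6 arrays. The mean of the 9 markers was 5.97, 6.07 and 6.18 in ImHABCL6/Uchl1 arrays and 6.79, 6.0 and 5.66 in ImHABCL6 arrays. The 11 red pulp macrophage markers did not stand out there, with mean levels of 4.89, 5.09 and 5.05 in ImHABCL6/Uchl1 arrays and 5.02, 5.14 and 5.19 in ImHABCL6 arrays. The part of myeloid cells in these values was not tested.

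**Figure D4:**
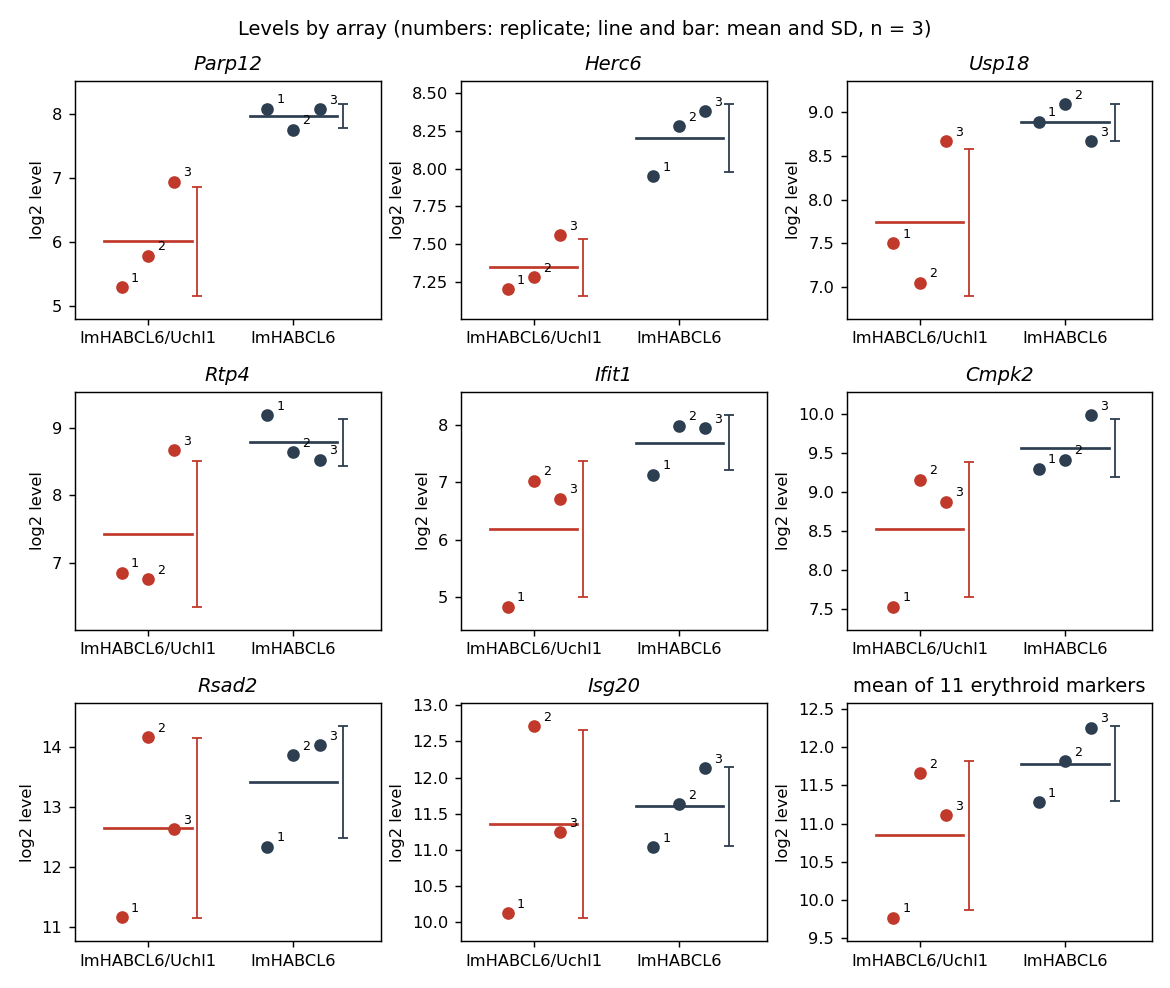
Log2 level (vertical axes, which differ in range) of 8 members and of the mean of 11 erythroid markers in each array, with ImHABCL6/Uchl1 at the left of each panel and ImHABCL6 at the right. Numbers are replicate numbers, horizontal lines are group means and bars are SD (n = 3). Parp12, Herc6, Ifit1 and Cmpk2 separate the groups, and in Rsad2 and Isg20 ImHABCL6/Uchl1 replicates 1 and 2 are the lowest and highest of all arrays.

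Beyond these effectors, of 62 further genes of the pathway in 8 lists, 51 were measured, and 0 of them passed over all genes. Not all of the lists stand upstream of the effectors: the ISG15 enzymes and the genes typical of interferon gamma do not. Of the signalling genes from JAK kinases to ISGF3 all 5 measured were lower (median -0.25), led by Irf9, the DNA-binding subunit of ISGF3. Irf9 read 8.70, 8.54 and 9.02 in ImHABCL6/Uchl1 cells and 9.35, 9.33 and 9.54 in ImHABCL6 cells and did not overlap (-0.66, SE 0.16, limma adjusted p = 0.854). Its partner Stat2 differed by -0.27 (SE 0.19) and the kinase Jak2 by -0.25 (SE 0.15). Irf7, which amplifies interferon production, read 8.33, 8.75 and 8.80 in ImHABCL6/Uchl1 cells and 9.23, 9.25 and 9.21 in ImHABCL6 cells. The groups did not overlap, and the difference was -0.60 (SE 0.16, limma adjusted p = 0.854). The values of Irf1, Irf3 and Irf5 overlapped between the groups, with Irf3 at -0.16 (SE 0.22).

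Of the 10 measured interferon genes 6 were lower and 4 higher (median -0.04). Their group means lay between 3.13 and 6.56, and all but Ifna1 were among the dim genes, where differences are compressed. The 2 of smallest p were Ifng at -0.24 (SE 0.14) and Ifna2 at 0.25 (SE 0.15). Of the 6 receptor genes 3 were lower (median -0.08), with Ifnar1 at -0.24 (SE 0.14) and Ifnar2 at -0.35 (SE 0.21, 0.01 with the erythroid covariate). The 7 inhibitors of the pathway had a median of -0.01, with the phosphatase Ptpn11 at -0.15 (SE 0.13) and Pias1 at 0.18 (SE 0.17), or -0.01 with the erythroid covariate.

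Of 12 nucleic acid sensors and adaptors 6 were lower (median -0.04). Ifih1, a sensor of long double-stranded RNA, differed by -1.42 (SE 0.36, limma adjusted p = 0.854) and the DNA sensor Cgas by -0.54 (SE 0.18, limma adjusted p = 0.983), and both separated the groups. Uba7, the activating enzyme of ISG15, read 9.16, 9.23 and 8.73 in ImHABCL6/Uchl1 cells and 9.56, 9.54 and 9.67 in ImHABCL6 cells (-0.55, SE 0.16, limma adjusted p = 0.915). Genes typical of interferon gamma were mixed, 3 of 5 lower, with Cxcl10 at -0.29 (SE 0.35) and Ciita, the master regulator of MHC class II, at 0.23 (SE 0.18). With the erythroid covariate Ciita was at -0.04, and with array weights Cxcl10 was at 0.16.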

How the data were processed

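The authors deposited 1 log2 value for each probe set on each of the 6 arrays. RMA and Partek are named, without versions, per the submitters' processing notes. RMA subtracts background and brings the arrays to a common distribution before it condenses probes to a log2 value, so small signals show smaller differences. The design text gives 3 mice per genotype, so arrays were taken as separate mice; p-values measure the spread between these arrays.

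Of 45101 probe sets, 34945 had 1 gene in GEO's platform annotation and 932 had several. The 9160 without a gene and the 64 Affymetrix controls were not used. Symbols were updated through Entrez identifiers with RefSeq (GRCm38.p6), which held 18145 of the 18193 genes. Each gene was read by its probe set of highest mean, with no filter on dim genes.

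The test of genotype was limma's moderated linear model (version 3.58.1, two-sided; R 4.3.3), adjusted by Benjamini-Hochberg over all genes at 0.05. Differences are ImHABCL6/Uchl1 minus ImHABCL6. The fit was tested on simulated data. The number of arrays limits the precision.

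The members and the gene lists were chosen with earlier results of these data known, so no test over the list was made. Array values are given for the 2 members of smallest p in each of 10 role groups, and other members by their difference. The 2 genes of smallest p are named in each pathway list. Alternatives were the mean of all probe sets, no suffixed probe sets (_x_at, _s_at, _a_at), no dim genes, median centring, quantile normalization, an erythroid covariate, a replicate block, limma's array weights, its trend and robust settings, and leaving out each array. Figures were drawn with matplotlib 3.10.9.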

Additional observations from a re-analysis of the deposited data

How the results depend on the processing

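Under all 15 alternatives 0 members had a limma adjusted p under 0.05, and the median log2 difference of the members stayed below 0, from -0.68 without ImHABCL6/Uchl1 replicate 3 to -0.26 with array weights. The number of members lower ran from 24 of 31 with array weights, against 51.4% of all genes, to 31 of 31. Fewer members were measured in 2 of the settings: 25 of 26 were lower without suffixed probe sets and 27 of 27 without dim genes. The 6 members at least 2-fold lower became 3 with the mean of all probe sets, against 0.594% of all genes. The count was 3 with array weights (0.94% of all genes) and 3 with the erythroid covariate (0.363%). It was 3 to 10 when 1 array was left out (0.319% and 1.26% of all genes in those fits). The 6 members whose ImHABCL6/Uchl1 arrays all lay below the ImHABCL6 arrays became 4 after quantile normalization, 4 without suffixed probe sets, 9 after median centring and 7 to 15 with 1 array fewer, where separation is easier by construction (8.37% of all genes for the count of 15). The 10 members with an unadjusted p under 0.05 became 6 to 14 when 1 array was left out, against 2.13% to 7.31% of all genes. Of 456 single member values under alternatives 424 stayed below 0 and 32 did not. Many of them could not change. The replicate block and the trend and robust settings leave every difference as it was. Removing dim genes keeps the differences of the remaining genes, and averaging probe sets keeps those of the 20 members with 1 probe set. The same count was not made over all genes, and the cause of the changes was not tested. The replicate numbers are not stated to pair mice, and deviations of same-numbered arrays correlated at 0.43, 0.19 and -0.26 across genes, with 1 of 3 ImHABCL6/Uchl1 arrays correlating best with its own number. With the replicate number as a block 12 members had an unadjusted p under 0.05, against 5.51% of all genes, and 0 an adjusted p under 0.05. Dim probe sets, such as those of Mx1, Mx2, Ifit3 and Ddx60, have the least signal over background.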
